A study of Mus musculus with 8 samples.

Results

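Acute-phase proteins are secreted in large amounts during inflammation, and 5 of their genes were examined here in mouse macrophages exposed to bilirubin: *Saa3*, *Hp*, *Lcn2*, *Cp* and *Hpx*. They were picked by gene symbol from the 53819 gene rows of the deposited table, with their response to bilirubin already known, so their differences between treatments are described and not tested. The study cultured bone marrow-derived macrophages (BMDM) from 4 female Balb/CJ mice aged 8 weeks. Bone marrow cells of each mouse were differentiated for 5 days with 25 ng/mL M-CSF, a growth factor that drives marrow progenitors to become macrophages. They then received either DMSO (vehicle) or 2.5 µM bilirubin for 48 h, and poly-A selected RNA was sequenced. Each group therefore held 4 libraries, and the vehicle and bilirubin cultures of a mouse formed a pair. The cultures carried no genetic change, and no other dose or time was sequenced.

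The liver is the main source of most acute-phase proteins, where interleukin-6 acts through STAT3 and interleukin-1 and TNF act through NF-κB and C/EBP factors. Some of these genes are also used outside the liver, and serum amyloid A3 is the form of its family that mouse macrophages and adipocytes make. Several of the proteins capture iron or its carriers: haptoglobin binds free hemoglobin, hemopexin binds free heme, lipocalin 2 binds the siderophores with which bacteria take up iron, and ceruloplasmin is a copper-containing ferroxidase that oxidizes iron as it leaves cells. Bilirubin is itself an end product of heme breakdown.

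The promoters of the members were read to show the letters that lie in front of them. RefSeq entries on the GRCm38.p6 build gave 250 bases before and 50 bases after the start site for 4 of the 5 members: *Saa3*, *Lcn2*, *Cp* (2 start sites) and *Hpx*. These windows were searched on both strands for a κB motif, for the C/EBP letters TTNNGNAA and for the STAT letters TTCNNNGAA. The bases before the start site are shown for *Saa3* (chr7:46715677-46715926, minus strand) and *Lcn2* (chr2:32387740-32387989, minus strand), the members with a single start site and the largest fold changes, and for *Hpx* (chr7:105600117-105600366, minus strand), the member left out by the filter on low counts. Each is written 5′ to 3′ in the direction of the gene and ends at the base before the start site, and capitals mark the matches to the C/EBP letters on either strand.
Saa3: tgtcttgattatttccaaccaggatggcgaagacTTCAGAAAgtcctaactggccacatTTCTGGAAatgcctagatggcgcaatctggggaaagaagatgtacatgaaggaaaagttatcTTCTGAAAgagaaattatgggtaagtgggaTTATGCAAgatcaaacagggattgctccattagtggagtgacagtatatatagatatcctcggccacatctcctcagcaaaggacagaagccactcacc
Lcn2: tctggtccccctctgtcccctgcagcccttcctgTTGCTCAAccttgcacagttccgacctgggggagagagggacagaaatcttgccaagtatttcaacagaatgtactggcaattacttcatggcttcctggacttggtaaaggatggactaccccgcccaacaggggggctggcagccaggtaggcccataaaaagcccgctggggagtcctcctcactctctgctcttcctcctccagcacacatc
Hpx: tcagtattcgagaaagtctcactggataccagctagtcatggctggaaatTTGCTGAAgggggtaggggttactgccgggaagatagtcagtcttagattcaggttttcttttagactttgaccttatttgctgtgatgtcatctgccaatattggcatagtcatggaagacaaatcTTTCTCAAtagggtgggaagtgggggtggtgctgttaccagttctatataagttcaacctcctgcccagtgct
*Saa3* held 4 C/EBP matches, which began at positions -216, -191, -129 and -99 from the start site and all lay on the strand of the gene. *Lcn2* held 1 match, at -216, and *Hpx* held 2, at -200 and -73, all 3 on the opposite strand. *Cp* held 1 match in front of each of its start sites. Neither the κB motif nor the STAT letters occurred in any of the 5 windows, so no match overlapped another motif. Among the 32851 promoters of the same length, 40.7% held the C/EBP letters, 4.51% the κB motif and 8.30% the STAT letters. A match is a run of letters and not a bound site, and nothing about the factors is read from these matches.

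Libraries held between 34142781 and 47071714 counts on genes. Estimated counts were rounded and compared within mice by edgeR's quasi-likelihood test. P-values were corrected across the 13722 genes that had enough counts, by the Benjamini-Hochberg procedure. Genes were called at an adjusted p under 0.05. Levels of a gene are given in CPM (counts scaled to library size, here with TMM factors), as mean ± SD of 4 mice. A log2 fold change above 0 means a higher level with bilirubin. All 10 macrophage markers were expressed, with a summed level of 24701 to 24941 CPM in vehicle libraries and 28955 to 30981 CPM in bilirubin libraries. Of these, *Lyz2*, *Adgre1* and *Itgam* were called higher. Of 10 hepatocyte markers, 9, *Alb*, *Ttr* and *Apoa1* among them, had 0 counts in every library. In RNA from a whole culture, fewer cells of a type and less RNA per cell cannot be told apart.

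Of the 5 members, 4 had enough counts to enter the fit, and *Hpx* did not. The fit called 3 of them higher (*Saa3*, *Hp* and *Lcn2*) and 0 lower, where 4.49% of all tested genes were called higher and 3.04% lower. Since this contrast was known when the members were picked, nothing is read from that count. *Lcn2* also passed the filter only through its bilirubin cultures. The number of genes called in either direction was 1033 (7.53%) with all mice, and 1910, 634, 377 and 441 without mouse 1, 2, 3 and 4. Calls were split into 616 higher and 417 lower with TMM scaling and into 527 higher and 556 lower when libraries were scaled by size alone.

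*Saa3* (ENSMUSG00000040026; GRCm39, chromosome 7, 46361422 to 46365576, minus strand) encodes serum amyloid A3, a lipid-binding protein that also acts as a ligand of innate immune receptors. With vehicle, mice 1 to 4 stood at 2.97, 3.21, 2.96 and 3.64 CPM, and with bilirubin the same mice stood at 99.2, 93.0, 200.3 and 132 CPM. The groups did not overlap, and the lowest bilirubin culture lay far above the highest vehicle culture. The ratio of bilirubin to vehicle was 33.4, 29.0, 67.7 and 36.1 in mice 1 to 4. The mean went from 3.19 ± 0.322 to 131 ± 49.2 CPM (SD, n = 4), and the fitted log2 fold change was 5.32 (SE 0.16), the 2nd highest of all tested genes. Mouse 3 had the largest change, and without it the fitted value was 5.04.

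*Hp* (ENSMUSG00000031722; GRCm39, chromosome 8, 110301759 to 110305804, minus strand) encodes haptoglobin, the plasma protein that captures free hemoglobin. Vehicle cultures of mice 1 to 4 held 0.799, 0.848, 0.734 and 0.705 CPM, from 30 to 38 counts each. Bilirubin cultures held 12.1, 11.5, 15.9 and 16.5 CPM, from 416 to 663 counts. The groups were again apart, and the vehicle values lay close together. The ratios were 15.1, 13.6, 21.7 and 23.4, with means of 0.771 ± 0.0642 and 14.0 ± 2.58 CPM (SD, n = 4) and a fitted log2 fold change of 4.17 (SE 0.15), the 7th highest.

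*Lcn2* (ENSMUSG00000026822; GRCm39, chromosome 2, 32274645 to 32278264, minus strand) encodes lipocalin 2, which withholds iron from bacteria by binding their siderophores. It was nearly silent in vehicle cultures, with 6, 1, 4 and 3 counts for mice 1 to 4, and reached 88, 66, 178 and 136 counts with bilirubin. On the CPM scale the vehicle cultures held 0.126, 0.0265, 0.0917 and 0.0705, and the bilirubin cultures 2.53, 1.83, 4.44 and 3.38. Every bilirubin culture was above every vehicle culture, and mouse 3 was again the highest. The fitted log2 fold change was 5.18 (SE 0.32), the 5th highest. With so few vehicle counts its size depended on how low counts were treated: the mean change within mice on log2 CPM with a prior count of 2 was 4.58 ± 0.49 (SD, n = 4).

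*Lcn2* and *Hp* are also stored in neutrophil granules, so 15 neutrophil markers were examined beside them. Of these, 5 were tested and only *S100a8* was called, with 11.5 ± 1.15 CPM in vehicle and 24.4 ± 5.55 CPM in bilirubin cultures (SD, n = 4; log2 fold change 1.07, adjusted p = 0.000334, edgeR quasi-likelihood test). The summed level of the 15 markers was 167 to 192 CPM in vehicle and 192 to 221 CPM in bilirubin libraries, most of it from *Mmp8*, *Csf3r* and *S100a8*. The other 12 were also summed without these 3 genes, a choice made after their values were seen. They held 116, 28, 60 and 44 counts with vehicle in mice 1 to 4 and 109, 57, 85 and 13 counts with bilirubin. These sums are not scaled to library size, which in mouse 1 was 47071714 counts with vehicle and 34142781 with bilirubin. *Fcnb* and *Retnlg* had 0 counts in all libraries. *Camp* and *Ly6g*, both granulocyte markers, had 0 counts in every vehicle library and averaged 0.0278 and 0.0187 CPM with bilirubin. *S100a9* had 10, 3, 1 and 0 counts with vehicle in mice 1 to 4 and 20, 4, 8 and 6 with bilirubin. *Ngp* had 19, 0, 3 and 8 counts with vehicle and 28, 9, 19 and 0 with bilirubin. In CPM, *S100a9* was higher with bilirubin in 4 mice and *Ngp* in 3. *Ltf*, *Mpo* and *Ctsg* were higher in 2 mice, and *Prtn3*, *Elane* and *Cxcr2* in 1. The part of such cells in the levels of *Lcn2* and *Hp* was not tested.

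*Cp* (ENSMUSG00000003617; GRCm39, chromosome 3, 20011090 to 20063930, plus strand) encodes ceruloplasmin. Its counts were few and uneven, with 11, 0, 0 and 46 for mice 1 to 4 under vehicle and 53, 4, 15 and 12 under bilirubin. It was higher with bilirubin in mice 1, 2 and 3 and lower in mouse 4, and the groups overlapped. Means were 0.328 ± 0.514 and 0.577 ± 0.642 CPM (SD, n = 4), and the fitted log2 fold change was 1.32 (SE 1.01). Without mouse 4 it was 3.47, and without mouse 1 it was 0.31. The gene shares exonic bases with *Hps3* on the opposite strand, and whether the counting used strand was not given in the sources used here.

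*Hpx* (ENSMUSG00000030895; GRCm39, chromosome 7, 105240817 to 105249344, minus strand) encodes hemopexin, the plasma carrier of free heme. Mice 1 to 4 had 15, 7, 9 and 11 counts with vehicle and 6, 6, 2 and 4 counts with bilirubin. In CPM these were 0.315, 0.185, 0.206 and 0.259 with vehicle and 0.173, 0.166, 0.0499 and 0.0995 with bilirubin. Bilirubin cultures were lower in 4 of 4 mice, although in mouse 2 the values differed by 1 count. The groups did not overlap, but the gap was narrow, with 0.185 CPM in vehicle mouse 2 and 0.173 CPM in bilirubin mouse 1. How often groups do not overlap among all genes was not counted, here or for the other members. In a fit without the filter on low counts, the log2 fold change was -1.04 (SE 0.74), opposite in sign to those of the other members.

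**Figure D1:**
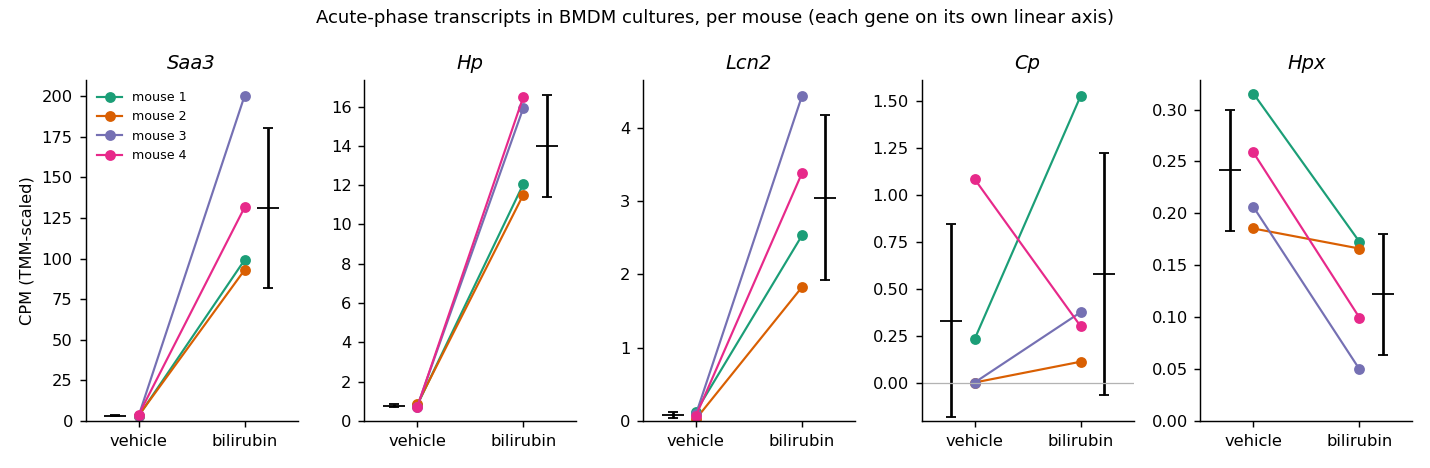
Level of each member in CPM, each on its own linear axis, with a line joining the vehicle and bilirubin culture of each mouse and bars for the mean ± SD of 4 mice. *Saa3*, *Hp* and *Lcn2* are higher with bilirubin in every mouse, at 131, 14.0 and 3.05 CPM on average, the lines of *Cp* cross, and *Hpx* is lower in every mouse, at 0.122 CPM on average.

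The changes within each mouse were put on a common scale as the difference in log2 CPM with a prior count of 2. For mice 1 to 4 they were 5.04, 4.84, 6.06 and 5.16 for *Saa3*, 3.83, 3.69, 4.35 and 4.45 for *Hp*, and 3.88, 4.62, 4.99 and 4.84 for *Lcn2*. *Saa3* changed more than *Hp* in each mouse. For *Cp* the differences were 2.49, 1.69, 3.09 and -1.70, and for *Hpx* they were -0.72, -0.12, -1.36 and -1.05. The spread between mice was 0.54 for *Saa3*, 0.38 for *Hp*, 0.49 for *Lcn2* and 0.53 for *Hpx* (SD, n = 4), and 2.14 for *Cp*.

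**Figure D2:**
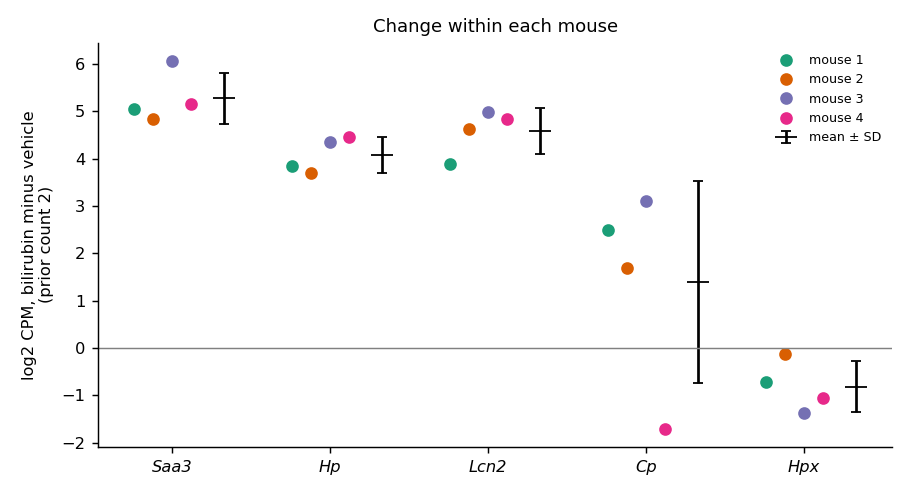
Change within each of 4 mice, as the difference in log2 CPM between the bilirubin and the vehicle culture with a prior count of 2, with the mean ± SD beside the points. *Saa3*, *Hp* and *Lcn2* lie between 3.69 and 6.06 in all mice, *Cp* spans -1.70 to 3.09, and *Hpx* lies between -1.36 and -0.12.

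Levels of different members were compared in TPM, the abundance that Salmon scales for transcript length and library size. In vehicle cultures the order of mean TPM was *Saa3* (12.8 ± 1.24), *Hp* (1.07 ± 0.162), *Cp* (0.890 ± 1.58), *Hpx* (0.343 ± 0.184) and *Lcn2* (0.189 ± 0.105; SD, n = 4). Only *Saa3* stood apart from its neighbour, with 11.7 to 14.5 TPM against 0.932 to 1.28 TPM for *Hp*. The ranges of *Hp* and *Cp*, of *Cp* and *Hpx*, and of *Hpx* and *Lcn2* overlapped. The place of *Cp* rested on mouse 4, without which its mean was 0.103 TPM. With bilirubin the order became *Saa3* (509 ± 189), *Hp* (18.2 ± 3.36), *Lcn2* (6.16 ± 2.26), *Cp* (1.35 ± 2.01) and *Hpx* (0.139 ± 0.0692; SD, n = 4). *Lcn2* thus moved from the lowest place to the third. *Hp*, at 14.5 to 21.6 TPM, did not overlap *Lcn2*, at 3.62 to 9.01 TPM, while *Lcn2* overlapped *Cp* (0.113 to 4.33 TPM) and *Cp* overlapped *Hpx* (0.0566 to 0.207 TPM). Among the 26048 genes with a TPM above 0 in any library, *Saa3* went from place 7411 with vehicle to place 271 with bilirubin by mean TPM. *Hp* went from place 11953 to 6163, *Lcn2* from 15139 to 9170, *Cp* from 12245 to 11582, and *Hpx* from 13968 to 15748.

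The deposited transcript values showed which form of each gene the reads were assigned to. *Saa3* has 3 annotated transcripts, and Saa3-201 took 99.2% to 99.8% of its reads in every library. Hp-201 took 77.5% to 100% of the *Hp* reads in vehicle and 93.5% to 100% in bilirubin libraries, so the same coding form dominated both groups. *Lcn2* differed: the reads of vehicle mice 1, 2 and 4 (6, 1 and 3 reads) were all assigned to Lcn2-202, a 789-base transcript that retains an intron, and only the 4 reads of vehicle mouse 3 were assigned to the coding transcript Lcn2-201 (915 bases). With bilirubin, Lcn2-201 took 96.8% to 100% of the *Lcn2* reads. At 1 to 6 reads per library, the forms present in vehicle cultures cannot be resolved.

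In the libraries with the most *Cp* reads, Salmon assigned most of them to 1 transcript. Cp-213 (ENSMUST00000172860), annotated as protein coding, is 674 bases long, with 5 exons and 0 bases that no other *Cp* transcript shares. It took 46.3 of the 53 *Cp* reads in the bilirubin culture of mouse 1 and 44.9 of the 46 reads in the vehicle culture of mouse 4, and 0 reads in the other 6 libraries. On all other transcripts together, mice 1 to 4 had 11, 0, 0 and 1.12 *Cp* reads with vehicle and 6.72, 4, 15 and 12 with bilirubin. *Cp* was then higher with bilirubin in mice 2, 3 and 4 and lower in mouse 1, the reverse of the pattern over mice 1 and 4 in the gene total. Counted this way in a fit without the filter, an alternative added after these values were seen, its log2 fold change was 2.57 (SE 1.01), against 1.53 (SE 0.62) in that fit with all reads.

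**Figure D3:**
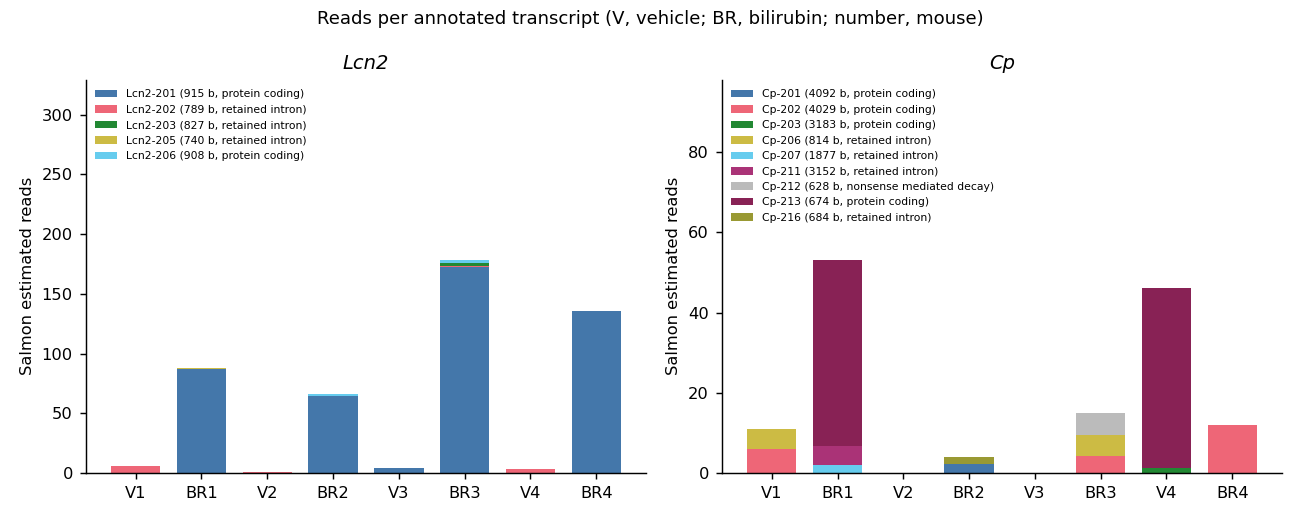
Salmon's estimated reads per annotated transcript of *Lcn2* and *Cp* in each library (V, vehicle; BR, bilirubin; the number is the mouse), stacked on a linear axis. Lcn2-201 makes up nearly all *Lcn2* reads with bilirubin, and Cp-213 makes up 46.3 and 44.9 reads of the tallest *Cp* bars and no reads elsewhere.

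Over the 8 libraries the log2 CPM of *Saa3* followed that of *Hp* (Pearson r = 0.996) and *Lcn2* (r = 0.987), and *Hp* followed *Lcn2* (r = 0.985). The points share libraries and fall into a vehicle and a bilirubin group, so these values mostly describe the step between groups. *Hpx* ran against the 3 genes (r = -0.798 to -0.765), while *Cp* followed none of them closely (r = 0.385 to 0.447). In a search of the 10906 tested genes whose log2 CPM averaged 1 or more, the genes most like *Saa3* were *Ass1* (r = 0.998), *Acod1* (r = 0.997) and *Ccl5* (r = 0.997). *Ass1* makes argininosuccinate in arginine synthesis, *Acod1* makes itaconate in activated macrophages, and *Ccl5* is a chemokine. Most like *Hp* were *Ass1* (r = 0.999), *Ccl5* (r = 0.996) and *Ifngr2*, a subunit of the interferon gamma receptor (r = 0.993). *Lcn2* was nearest to *Acod1* (r = 0.994), *Myadm* (r = 0.993) and *Slpi*, a secreted protease inhibitor (r = 0.993). *Cp* was nearest to *Gm21992* (r = 0.970), *Gm6863* (r = 0.963) and *Hjurp* (r = 0.961), and *Hpx* to *Suox* (r = 0.987), *Wdr11* (r = 0.955) and *Crls1* (r = 0.951). Being the highest of many correlations over few libraries, these values are descriptions.

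Other acute-phase genes, and genes that induce, receive or work with the members, were counted in 7 lists, in which the fit called 20 genes higher and 5 lower, where 4.49% of all tested genes were called higher and 3.04% lower. Of 41 other positive acute-phase genes, the classical set whose plasma proteins rise in inflammation, 23 had 3 counts or fewer in every library and 19 of these had 0 counts in all. The liver members of the serum amyloid family, *Saa2* and *Saa4*, had 0 counts in every library, and *Saa1* had 3 counts, all in the bilirubin culture of mouse 3. *Crp*, *Apcs*, *Hamp*, *Fga* and the *Serpina1* genes were likewise at 0. The remaining genes held few counts or were tested: 8 entered the fit, 5 were called higher and 0 lower, with a median log2 fold change of 0.41, where the median of all tested genes was -0.0018. *Cfb* had 16, 0, 7 and 28 counts with vehicle in mice 1 to 4, and passed the filter only through its bilirubin cultures. The count of called genes and the median include it.

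All 5 called genes were higher with bilirubin in 4 of 4 mice, and each adjusted p given here and below is from edgeR's quasi-likelihood test. The complement genes had the largest changes. *Cfb*, the factor B of the alternative pathway, went from 0.289 ± 0.282 to 10.8 ± 3.70 CPM (log2 fold change 5.20, SE 0.42, adjusted p = 0.000275), a size close to that of *Lcn2*. It was 5.91 without mouse 4, and the gene overlaps *Gm20547* on the same strand. *C3*, the central complement component, went from 15.6 ± 1.05 to 132 ± 38.5 CPM (log2 fold change 3.05, SE 0.12, adjusted p = 1.3e-05). *Il1rn*, the interleukin-1 receptor antagonist, rose by 0.52 (SE 0.05, adjusted p = 0.000514) and *Cd14*, the lipopolysaccharide co-receptor, by 0.29 (SE 0.04, adjusted p = 0.00372) on the log2 scale. *Cd14* did not pass without the mouse in the model (adjusted p = 0.0775). *Mt2*, a metallothionein, rose by 0.60 (SE 0.11, adjusted p = 0.0155), but lost its call when mouse 3 (adjusted p = 0.125) or mouse 4 was left out (adjusted p = 0.0938), in a range of 0.000348 to 0.125 over its alternatives. *Mt1* and *Ambp* were tested and not called. Among the untested genes, *Orm1*, an acid glycoprotein of the liver, had 0, 0, 1 and 4 counts with vehicle in mice 1 to 4 and 2, 13, 9 and 6 with bilirubin. *Serpina3g*, a protease inhibitor, had 3, 5, 2 and 0 counts with vehicle and 20, 6, 20 and 17 with bilirubin. *Lbp*, the lipopolysaccharide-binding protein, had 9, 9, 12 and 7 counts with vehicle and 5, 2, 4 and 5 with bilirubin.

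Of 10 negative acute-phase genes, whose plasma proteins fall in inflammation, 7 had 3 counts or fewer in every library, *Alb* and *Ttr* at 0 among them. The 1 gene tested was *Trf*, which encodes transferrin, the carrier of iron in plasma. It fell from 41.6 ± 1.76 to 29.3 ± 2.94 CPM, in 4 of 4 mice (log2 fold change -0.51, SE 0.06, adjusted p = 0.00141), but did not pass with an offset for transcript length (adjusted p = 0.234).

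The cytokines that induce acute-phase genes were themselves partly higher. Of 8, 5 were tested and 3 called higher in 4 of 4 mice, with a median log2 fold change of 0.79. *Il1a* had 9, 8, 3 and 17 counts with vehicle in mice 1 to 4, and passed the filter only through its bilirubin cultures. *Il1a* went from 0.217 ± 0.137 to 2.50 ± 0.883 CPM (log2 fold change 3.51, SE 0.43, adjusted p = 0.00191) and *Il1b* from 0.803 ± 0.353 to 5.91 ± 3.50 CPM (log2 fold change 2.80, SE 0.28, adjusted p = 0.000711). *Tnf* went from 37.2 ± 3.49 to 64.6 ± 10.9 CPM (log2 fold change 0.79, SE 0.07, adjusted p = 0.000584). *Il6* was barely detected, with 0 counts in every vehicle culture and 2, 0, 7 and 0 counts in the bilirubin cultures of mice 1 to 4. *Osm* and *Clcf1*, other cytokines of the interleukin-6 family, were tested and not called.

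Of 14 genes for the receptors and signalling steps of these cytokines, 13 were tested, 1 was called higher and 1 lower, and the median log2 fold change was 0.01. *Socs3*, a feedback inhibitor that STAT3 induces, went from 3.30 ± 0.233 to 8.58 ± 2.19 CPM (log2 fold change 1.35, SE 0.15, adjusted p = 0.00147). *Il6st*, the shared receptor subunit gp130, fell by 0.27 on the log2 scale (SE 0.05, adjusted p = 0.0234), in 4 of 4 mice. It lost its call when mouse 3 (adjusted p = 0.164) or mouse 4 was left out (adjusted p = 0.115), in a model without the mouse (adjusted p = 0.0719) and with an offset for transcript length (adjusted p = 0.0586), in a range of 3.61e-06 to 0.164. *Stat3* stood at 85.0 ± 4.25 and 85.4 ± 5.36 CPM and was not called (adjusted p = 0.961).

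Of 12 transcription factor genes, 10 were tested, 3 called higher and 1 lower, with a median log2 fold change of 0.27. *Relb* (log2 fold change 1.00, SE 0.08, adjusted p = 0.000221) and *Nfkb2* (0.63, SE 0.04, adjusted p = 7.6e-05) encode partners of the non-canonical NF-κB dimer. *Nfkbiz*, which encodes the nuclear cofactor IκBζ that is needed for *Lcn2* in macrophages stimulated through Toll-like receptors, had a log2 fold change of 0.93 (SE 0.11, adjusted p = 0.00187). All 3 were higher in 4 of 4 mice. *Cebpa* fell by 0.41 on the log2 scale in 4 of 4 mice (SE 0.04, adjusted p = 0.000481). *Cebpb* and *Cebpd*, the C/EBP factors best known from the acute phase, had log2 fold changes of 0.29 (SE 0.07) and 0.37 (SE 0.16) and were not called (adjusted p = 0.0592 and 0.217).

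Receptors of the member proteins were counted next. Of 10, 7 were tested, 2 called higher and 1 lower, with a median log2 fold change of 0.09. Among those reported for serum amyloid A, *Fpr2* and *Tlr2* were called higher, in 4 of 4 mice. *Tlr4*, *P2rx7* and *Scarb1* were tested and not called, with log2 fold changes of 0.11 (SE 0.06), 0.09 (SE 0.09) and -0.06 (SE 0.05), and *Ager* had too few counts to be tested. *Fpr2* went from 1.87 ± 0.642 to 13.0 ± 4.97 CPM (log2 fold change 2.76, SE 0.26, adjusted p = 0.000594), although it shares its strand and exonic bases with *Fpr3*. *Tlr2* went from 52.6 ± 2.17 to 126 ± 21.0 CPM (log2 fold change 1.25, SE 0.08, adjusted p = 7.6e-05). *Lrp1*, the hemopexin receptor, fell from 4034 ± 112 to 3338 ± 243 CPM (log2 fold change -0.28, SE 0.04, adjusted p = 0.00305), and did not pass with an offset for transcript length (adjusted p = 0.0877). *Cd163*, the receptor of haptoglobin and hemoglobin, held 1.05 ± 0.394 and 0.799 ± 0.508 CPM and was not called (log2 fold change -0.46, SE 0.37, adjusted p = 0.555). The lipocalin 2 receptors *Slc22a17* and *Lrp2* had too few counts to be tested.

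The last list held 26 genes that handle heme, iron and copper inside the cell, the cargo of the member proteins. Of these, 22 were tested, 6 called higher and 1 lower, and the median log2 fold change was 0.07. The largest change was that of *Slc11a2*, the importer that moves iron across endosomal membranes, from 43.4 ± 2.47 to 73.2 ± 6.23 CPM (log2 fold change 0.75, SE 0.04, adjusted p = 4.6e-05). *Slc40a1*, the iron exporter ferroportin with which ceruloplasmin works, fell by 0.71 on the log2 scale (SE 0.10, adjusted p = 0.00296), from 103 ± 10.1 to 64.2 ± 19.4 CPM and in 4 of 4 mice. *Atox1*, a copper chaperone, rose by 0.37, *Blvrb*, a biliverdin reductase, by 0.35, and *Ncoa4*, the adaptor for ferritin breakdown, by 0.33, all in 4 of 4 mice (adjusted p = 0.000666, 0.00122 and 0.00158). *Slc11a1*, a metal transporter of the phagosome, rose by 0.31 (SE 0.06, adjusted p = 0.0142), but did not pass without mouse 2, 3 or 4 (adjusted p = 0.0784, 0.126 and 0.102) or with the offset for transcript length (adjusted p = 0.0551), in a range of 1.17e-09 to 0.126. The inducible heme oxygenase *Hmox1* held 2178 ± 293 and 2035 ± 810 CPM and was not called (adjusted p = 0.634), nor was the ferritin gene *Fth1* (adjusted p = 0.299). *Heph*, the membrane-bound relative of ceruloplasmin, had 12 counts or fewer in every library.

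**Figure D4:**
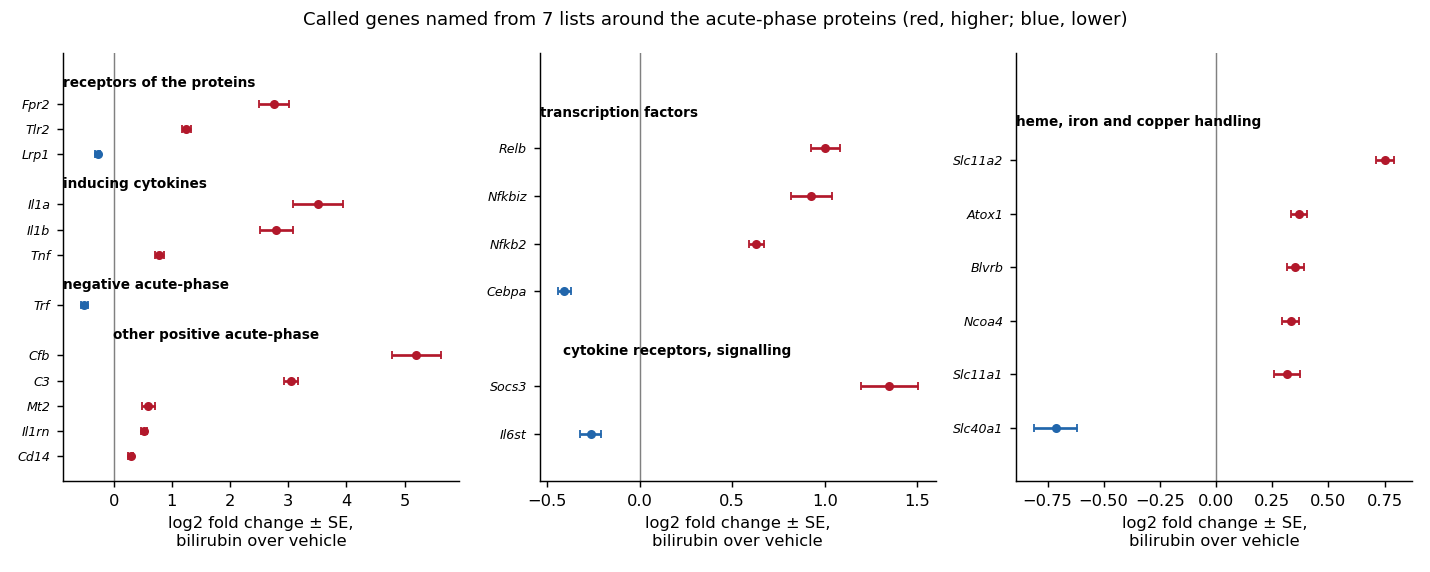
Fitted log2 fold change ± SE of the 24 called genes named from the 7 lists, with red for genes called higher and blue for genes called lower, each panel on its own linear axis. *Cfb* (5.20), *Il1a* (3.51), *C3* (3.05), *Il1b* (2.80) and *Fpr2* (2.76) lie farthest to the right, and *Trf*, *Il6st*, *Cebpa*, *Lrp1* and *Slc40a1* are the 5 blue points.

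Markers of other cell types were mostly near 0 in these cultures. Markers of dendritic cells summed to at most 0.159 CPM in vehicle and 0.622 CPM in bilirubin libraries, those of lymphoid cells to 0.106 and 0.194 CPM, those of mast cells, basophils and eosinophils to 0.0631 and 1.05 CPM, and those of erythroid cells to 0.212 and 0.221 CPM. Stromal and endothelial markers summed to 96.2 to 116 and 93.2 to 110 CPM, with *Vwf* at 101 and 93.4 CPM on average, and 0 of 6 tested were called. Their part in the levels of the members was not tested.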

How the data were processed

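RNA of 8 BMDM cultures, a vehicle and a bilirubin culture from each of 4 mice, was analysed from the processed values. The submitters' notes name Trim Galore 0.6.7, Cutadapt 3.4, STAR 2.7.9a and Salmon 1.10.1 on the GRCm39 build, and the study summed transcripts per gene with tximport. The gene table that the authors deposited holds expected counts (Salmon's estimated counts), without scaling for depth or length. For each library the authors also deposited estimated counts and TPM per transcript, and summing these per gene gave back the gene table.

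Expected counts were rounded to whole numbers and analysed in R 4.3.3 with edgeR 4.0.16: TMM scaling, the filterByExpr filter (10 counts or more, and 15 over all libraries), mouse and treatment as model terms, the quasi-likelihood test and Benjamini-Hochberg adjustment over 13722 genes with a threshold of 0.05. Log2 CPM used a prior count of 2. The mouse was in the model because the study's methods also fitted it. The labels give a vehicle and a bilirubin culture the same number, and that number was read as the mouse. Deviations from the group means correlated on average at 0.0862 between cultures of the same mouse and at -0.0279 between cultures of different mice. For the cultures of mouse 4 the value was -0.0053, below that of some cultures of different mice. Replicates are separate mice. The procedure was checked on simulated data. Alternatives were a model without the mouse, DESeq2 1.42.0, limma 3.58.1 (voom and trend), other scalings and filters, an offset for transcript length, and leaving out each mouse.

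The members and the gene lists were chosen with earlier results of these data known, so no p-value is given for a member and no test for a list. Genes named from a list are those that passed, up to the 6 with the smallest adjusted p, genes at 3 counts or fewer without a fold, and a few others named after their values were seen, which are the untested or uncalled genes given by their values. The results of some genes are not reported here. For each member, the 3 genes with the highest Pearson correlation are named. Gene positions are from GENCODE M39. Libraries of 34142781 to 47071714 counts were analysed, and genes with 3 counts or fewer in every library were treated as at the floor.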

Additional observations from a re-analysis of the deposited data

Results flagged for a closer look

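Each group of 4 cultures was searched for a single culture far from the rest by Dixon's criterion, over the members and the 24 genes named from the lists, 29 genes and 58 groups in all. No group of a member met it, and 7 groups did. Chance alone flags about 1 in 20 groups. In vehicle cultures, *C3* was lowest in mouse 2, at 14.1 CPM against 16.0 to 16.3 CPM in the other mice. The other 6 were bilirubin cultures of mouse 1 or mouse 2. In mouse 1, *Il1rn* was at 36.8 CPM (others 52.7 to 55.1), *Atox1* at 62.4 CPM (others 71.7 to 72.9) and *Blvrb* at 178 CPM (others 215 to 220.1). In mouse 2, *Tlr2* was lowest at 94.8 CPM (others 136 to 137), while *Il6st* was highest at 133 CPM (others at most 108) and *Slc40a1* was highest at 93.1 CPM (others 52.2 to 58.4). All 7 genes were named from the lists because they were called with every mouse included. Their calls therefore say nothing about the weight of these cultures.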

How the results depend on the processing

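No fold change of a member or of a named list gene changed sign under an alternative, while the change of *Cp* within mice 1 and 4 did when the reads of Cp-213 were left out. Scaling by library size alone gave 527 genes higher and 556 lower, so that lower calls outnumbered higher ones. Over the alternatives, log2 fold changes spanned 5.04 to 5.45 for *Saa3*, 4.04 to 4.29 for *Hp*, 4.58 to 5.60 for *Lcn2*, 0.31 to 3.47 for *Cp* and -1.34 to -0.79 for *Hpx*. The lowest value of *Lcn2* was that of limma-trend (4.58). *Cp* and *Hpx* give no value under a filter of CPM above 1 in 4 libraries, which removed them. Without the replicate block, the pairing by mouse, 458 genes were called higher and 228 lower in place of 616 and 417, and the members stood at 5.36, 4.18, 5.18, 0.78 and -0.99 in the same order. Of the named list genes, only *Cd14* and *Il6st* lost their call without the block. With no filter on low counts 26021 genes were tested, and 918 were called higher and 774 lower. In the lists, 27 were then higher in place of 20, and 8 lower in place of 5. With an offset for transcript length 373 genes were called higher and 207 lower, 2 of the latter in the lists. Leaving out 1 mouse gave 265 to 1026 genes higher and 112 to 884 lower, list genes of 17 to 24 higher and 4 to 6 lower, and 4 to 6 other positive acute-phase genes higher. Leaving out 1 mouse moved *Saa3* between 5.04 and 5.45, *Hp* between 4.04 and 4.29, *Lcn2* between 5.03 and 5.60, *Cp* between 0.31 (without mouse 1) and 3.47 (without mouse 4), and *Hpx* between -1.34 and -0.79. Leaving out a mouse also leaves fewer samples, and otherwise the cause of these shifts was not tested. Of 312 values of the 24 named list genes, 299 passed and 13 kept their direction without passing. With 250 bases in place of 300, 36.8% of promoters held the C/EBP letters, 3.90% the κB motif and 7.02% the STAT letters, and the matches of the members were the same. Depth limits *Cp*, *Hpx* and the vehicle level of *Lcn2*.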
